A study of Homo sapiens with 4 samples.

Results

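GATA2 occupancy was mapped by ChIP-seq in K562 cells, a human chronic myeloid leukaemia line. The 1110 regions described here are GATA2 peaks of asynchronous cells that were at least 800 bp wide and had no counterpart in mitotic cells. Members were chosen by 2 measured values, the width of the asynchronous peak and its overlap with the mitotic peaks. A wide peak was counted as lost when no base of it lay in a mitotic GATA2 peak and as retained when at least 1 base did. Of 31777 asynchronous peaks, 1583 were wide, and of these 1110 were lost and 473 retained. The lost wide peaks made up 3.49% of the asynchronous peaks and 7.97% of the bases that those peaks covered.

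The asynchronous library came from an unsynchronised culture, most of which is in interphase. The mitotic library came from cells arrested with nocodazole, which blocks the spindle, and sorted on MPM-2, a mitotic phospho-epitope. Both cultures were fixed in the same way, first with disuccinimidyl glutarate and then with formaldehyde, and both were precipitated with the same antibody against endogenous GATA2. Sorted cells of several rounds were pooled and still held some asynchronous cells, so each condition is 1 library without a replicate. Sequencing depth and peak height are not known from the peak lists, which give only a start and an end. A lost peak is therefore one that was not called in 1648 mitotic peaks, which cannot be told apart from GATA2 binding under the limit of detection. Intervals given below are at 95% and cover counting error over peaks only.

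GATA2 is a zinc finger transcription factor that is needed to form and maintain haematopoietic stem and progenitor cells. It binds short GATA strings, often in enhancers and introns far from promoters, and at many of them together with TAL1, RUNX1 or ETS factors. Bookmarking is the name for binding by such a factor that persists at part of its sites through mitosis, while transcription is largely silent. The string GATA with an A or T before it and an A or G after it, on either strand and counted without overlap, is called a GATA core below. A match describes the sequence and is not proof of a bound site.

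The windows below show what the lost wide peaks look like at sequence level beside retained ones. Each is the stretch of 200 bases with most GATA cores in the widest peak at a promoter, in an intron and between genes whose window touched no annotated UTR, first for lost and then for retained peaks. Each is named after the protein-coding gene whose transcription start site (TSS) is closest to the peak midpoint. The windows lie on hg38 at chr10:69315097-69315296 (HK1), chr15:42500144-42500343 (SNAP23), chr21:42629026-42629225 (PDE9A), chr4:73432383-73432582 (AFP), chr11:114216399-114216598 (ZBTB16) and chr11:82790838-82791037 (PRCP). All are on the plus strand, 5′ to 3′, and capitals mark GATA cores.
HK1 lost promoter: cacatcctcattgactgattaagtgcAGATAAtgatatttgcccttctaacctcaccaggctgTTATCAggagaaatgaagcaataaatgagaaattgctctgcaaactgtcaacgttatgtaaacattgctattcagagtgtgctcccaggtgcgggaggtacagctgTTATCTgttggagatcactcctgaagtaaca
SNAP23 lost intron: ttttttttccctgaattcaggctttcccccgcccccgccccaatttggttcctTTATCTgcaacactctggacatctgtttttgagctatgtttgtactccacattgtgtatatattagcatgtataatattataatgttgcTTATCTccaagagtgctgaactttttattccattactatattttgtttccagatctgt
PDE9A lost intergenic: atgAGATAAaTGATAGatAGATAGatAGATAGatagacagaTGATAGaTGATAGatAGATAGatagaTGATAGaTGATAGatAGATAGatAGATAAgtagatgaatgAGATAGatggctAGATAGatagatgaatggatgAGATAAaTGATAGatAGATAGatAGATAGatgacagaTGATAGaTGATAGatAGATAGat
AFP retained promoter: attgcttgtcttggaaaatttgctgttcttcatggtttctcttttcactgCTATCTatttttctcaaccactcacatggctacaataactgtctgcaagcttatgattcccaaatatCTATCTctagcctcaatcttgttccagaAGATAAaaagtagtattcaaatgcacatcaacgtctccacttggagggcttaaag
ZBTB16 retained intron: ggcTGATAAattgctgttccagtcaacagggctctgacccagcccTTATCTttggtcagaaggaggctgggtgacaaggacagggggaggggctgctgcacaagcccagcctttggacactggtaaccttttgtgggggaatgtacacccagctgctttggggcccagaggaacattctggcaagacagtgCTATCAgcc
PRCP retained intergenic: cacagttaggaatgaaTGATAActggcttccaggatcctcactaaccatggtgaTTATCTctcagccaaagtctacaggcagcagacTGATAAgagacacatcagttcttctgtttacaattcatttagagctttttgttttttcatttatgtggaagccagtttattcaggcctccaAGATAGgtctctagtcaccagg
The HK1 window lies in a lost peak of 1512 bp whose midpoint is 100 bp upstream of a TSS of the hexokinase gene, and it holds 3 GATA cores. The SNAP23 window, in the first intron of a gene for a SNARE protein of membrane fusion, holds 2. The PDE9A window holds 20, most of them in stretches where the 4 bases GATA follow each other without a gap or nearly so. Of the retained windows, those of AFP and ZBTB16 hold 3 GATA cores each and that of PRCP holds 4.

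A wide asynchronous peak was lost less often than a narrow one, which the choice by width and overlap already fixes in part. Of all asynchronous peaks, 95.0% shared no base with a mitotic peak. Among wide peaks this share was 70.1% (67.8 to 72.4, exact interval, 1110 of 1583). It was 99.8% of 10313 peaks under 300 bp and 79.3% of 1259 peaks of 700 to 799 bp. Within the wide peaks it went from 75.1% of 409 peaks of 800 to 849 bp to 57.1% of 119 peaks of 1200 to 1499 bp, and was 62.1% of the 29 peaks of 1500 bp or more. Just outside the threshold, 42 of 53 peaks of 795 to 799 bp were lost, and just inside it, 33 of 41 peaks of 800 to 804 bp. The median number of GATA cores was 3 on either side. Lost wide peaks had a median width of 902 bp and reached 2210 bp, and retained ones had a median of 934 bp and reached 2590 bp. Width is what chose these peaks, so no test was made of these values.

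**Figure D1:**
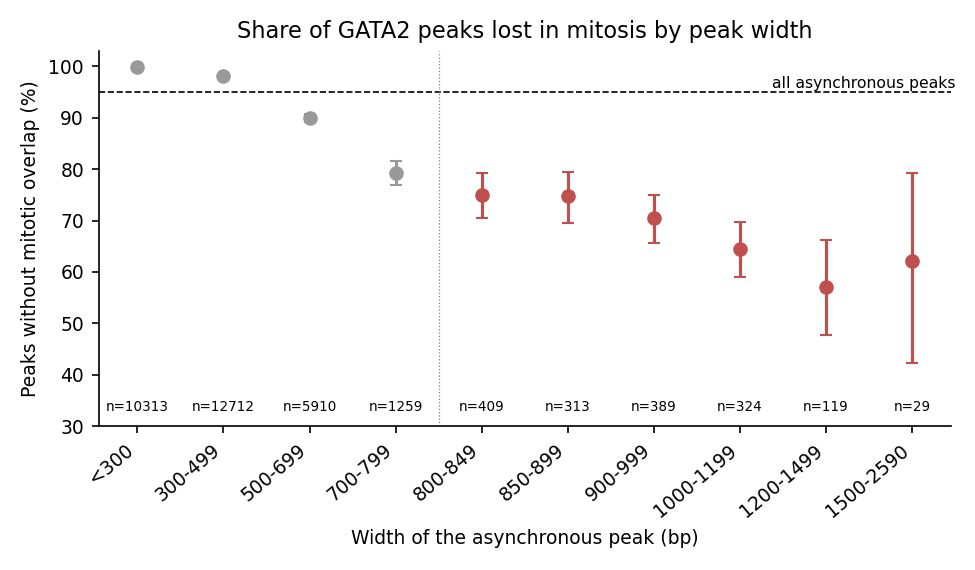
Share of asynchronous GATA2 peaks with no base in a mitotic peak (vertical axis, percent, starting at 30) for 10 classes of peak width (horizontal axis, bp), with exact 95% intervals as bars and the number of peaks in each class. Red points are the wide peaks, grey points the narrower ones, and the dashed line is the share over all peaks, 95.0%. The share fell with width, from 99.8% under 300 bp to 57.1% at 1200 to 1499 bp.

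GATA cores were denser in the lost wide peaks than around them. The lost wide peaks held 5.76 cores per kb, against 2.24 per kb in stretches of the same lengths placed 5 kb to either side. Over all asynchronous peaks the density was 5.995 per kb and in lost peaks under 800 bp 6.12 per kb, so it was no higher in the wide ones. At least 1 core was found in 99.2% of lost wide peaks, against 82.4% of those 2220 neighbouring stretches, and 9 lost peaks had none. The string that GATA2 binds was thus present in nearly every member. Retained wide peaks held 5.16 cores per kb and their neighbouring stretches 2.20 per kb. The number of cores per peak averaged 5.50 ± 8.06 (SD, n = 1110, median 4) in lost and 5.16 ± 2.91 (SD, n = 473, median 5) in retained peaks. The difference of the means was 0.35 cores (-0.20 to 0.89), which includes 0. With lost peaks weighted to the widths of retained peaks it was 0.74 (0.04 to 1.45), which does not. Counted for AGATAAG or TGATAAG alone, the difference was -0.20 (-0.33 to -0.08), which leaves out 0 in the other direction. For GATAA alone it was -0.19 (-0.43 to 0.05).

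The larger mean and spread of the lost peaks came with a small group of peaks that hold GATA in tandem, meaning 3 or more copies of GATA, or of TATC on that strand, without a base between them. There were 27 such peaks among the 1110 lost (2.43%) and 3 among the 473 retained (0.634%), a difference of 1.80 percentage points (0.369 to 2.96). Among peaks of 1000 bp or more the difference was 3.28 points (-0.140 to 6.37), and widened for the 36 shares compared the interval over all wide peaks was -1.03 to 3.83 points, so the call ended in both cases. In the neighbouring stretches of the lost peaks the share was 0.270%. Of the 30 wide peaks with tandem GATA, 90.0% were lost (73.5 to 97.9), against 69.7% of the 1553 wide peaks without it. Over all widths, 497 of 502 asynchronous peaks with tandem GATA were lost. This is 99.0% (97.7 to 99.7), beside the 95.0% of all peaks.

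The 27 lost tandem peaks carried between 3 and 125 GATA cores, with a median of 41, and 21 of them had a run of 8 copies or more. Together they held 1165 of the 6107 GATA cores in lost wide peaks, or 19.1%. The peak richest in cores, with 125 in 2156 bp, lay 24378 bp upstream of PDE9A, which encodes a cGMP phosphodiesterase, and part of it is printed above. The next had 109 cores in 1394 bp and lay 92045 bp upstream of SMIM23. Another peak, of 1821 bp and 83 cores, lay 275488 bp downstream of BRD1, which encodes a bromodomain protein. The peak near the lipoxygenase gene ALOX15B packed 68 cores into 827 bp. The retained tandem peaks were nearest to WIPF3, KIT and UST, with 40, 16 and 12 cores. Only uniquely mapped reads were used by the authors, and how well reads map to these repeats was not tested.

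**Figure D2:**
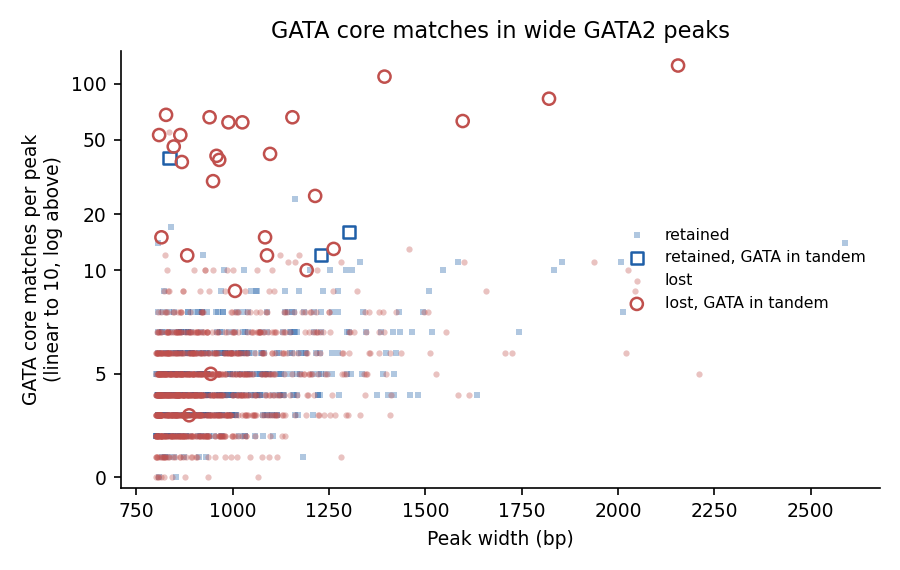
Number of GATA cores per peak (vertical axis, linear to 10 and logarithmic above) against peak width (horizontal axis, bp) for the 1110 lost (red circles) and 473 retained (blue squares) wide peaks. Open symbols are peaks with 3 or more copies of GATA in tandem. The 27 lost tandem peaks reach 125 cores, and the 3 retained ones 40.

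Without the tandem peaks the direction of the mean turned. Lost peaks then averaged 4.56 ± 2.54 GATA cores (SD, n = 1083) and retained peaks 5.04 ± 2.36 (SD, n = 470), a difference of -0.48 (-0.74 to -0.22). The density of cores in lost peaks was then 4.80 per kb. Over all wide peaks, tandem peaks included, those with 7 or more cores made up 18.2% of the lost and 22.2% of the retained, a difference of -4.00 points (-8.51 to 0.242) that includes 0. It was -5.36 points (-9.82 to -1.17) without tandem peaks and -1.02 points (-5.64 to 3.35) with lost peaks weighted to the widths of retained ones.

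Over all wide peaks, lost and retained ones differed in how their GATA cores were placed. In the central 200 bp, 65.0% of lost and 72.9% of retained peaks had a core, a difference of -7.89 points (-12.7 to -2.89). At least 2 cores there were found in 29.3% of lost and 41.6% of retained peaks, a difference of -12.4 points (-17.6 to -7.22). In neighbouring stretches the centre held that many in 7.84% for lost and 9.30% for retained peaks. Lost peaks were thus well above the surrounding sequence and below the retained peaks. Anywhere in the peak, 3 or more cores within one window of 200 bp were found in 47.6% of lost and 59.2% of retained peaks, a difference of -11.6 points (-16.9 to -6.26). For 4 or more the shares were 15.0% and 23.0%, a difference of -8.09 points (-12.6 to -3.89). The same direction was seen under 800 bp, so it was not particular to wide peaks. There, 2 or more central cores were found in 45.4% of lost and 55.9% of retained peaks. For 3 or more in one window the shares there were 25.2% and 40.6%. Those narrower groups were unlike in width, with medians of 359 bp for lost and 595 bp for retained peaks. In all, 36 shares were compared between lost and retained wide peaks. The interval left out 0 for 10 of them, and for 3 when widened for that number of comparisons. These 3 were the shares with 2 or more central cores and with 3 or more or 4 or more in one window. The measures of central and dense cores were added after seeing the data, a choice that the widening does not cover.

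The differences in core placement were smaller among peaks of 1000 bp or more (295 lost and 177 retained). The difference in peaks with any central core was -4.07 points (-12.7 to 4.94). There, 2 or more central cores were found in 28.1% of lost and 32.2% of retained peaks, a difference of -4.07 points (-12.7 to 4.33). For 3 or more in one window the difference there was -2.94 points (-11.9 to 6.26), and for 4 or more it was -3.50 points (-11.4 to 3.95). These intervals include 0, and whether the difference depends on width was not tested. At 1200 to 1499 bp, 58.8% of lost and 60.8% of retained peaks had a central core. At 1500 bp or more the order turned, with 88.9% of 18 lost and 54.5% of 11 retained peaks. Leaving out the tandem peaks made the differences larger over all wide peaks, -13.3 points (-18.5 to -8.16) for 2 or more central cores and -9.53 points (-13.9 to -5.39) for 4 or more in one window. The window with most cores lay on average 197 ± 120 bp (SD, n = 1101) from the midpoint in lost peaks and 170 ± 135 bp (SD, n = 471) in retained ones. It was 26.9 bp (12.8 to 41.0) farther out in the lost peaks.

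The density of cores along the peak showed the same arrangement. Without tandem peaks, lost peaks held 4.99 cores per kb within 50 bp of the midpoint, 5.80 per kb at 150 to 200 bp and 3.74 per kb at 350 to 400 bp. Retained peaks held 6.96, 6.43 and 3.55 per kb at the same distances. The profile of the lost peaks was lower at the midpoint than 50 to 250 bp away, and that of the retained peaks was highest within 100 bp of the midpoint. In retained peaks the mitotic peak covered a median of 36.2% of the asynchronous peak, and its midpoint was a median of 110 bp away. The retained peaks held 7.94 cores per kb inside the mitotic peak and 3.46 per kb in the rest. The mitotic peaks also chose the retained group, and no matching part of the lost peaks was measured, so these densities are a description.

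**Figure D3:**
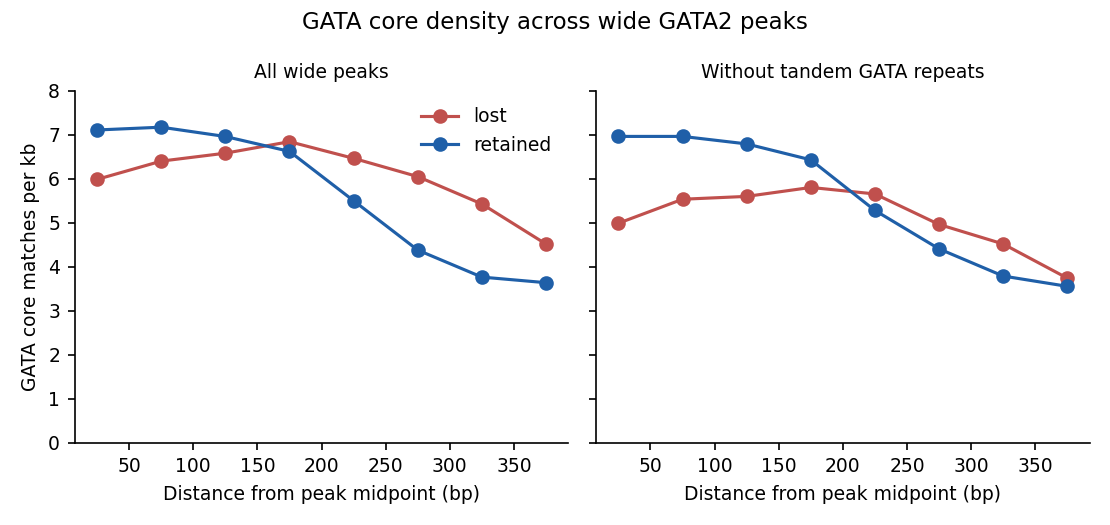
GATA cores per kb (vertical axis) in bins of 50 bp by distance from the peak midpoint (horizontal axis, bp, both sides joined) in lost (red) and retained (blue) wide peaks, for all wide peaks on the left and without tandem GATA peaks on the right. On the right the first bin is at 4.99 per kb for lost and 6.96 per kb for retained peaks, and the order turns beyond 200 bp.

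Most of the single strings had intervals that included 0. AGATAG was present in 52.4% of lost and 58.6% of retained wide peaks (-6.13 points, -11.4 to -0.771). The longer TGATAAG was present in 32.2% and 38.1% (-5.89 points, -11.1 to -0.790). For AGATAAG, in 57.3% and 62.6%, the interval of -10.4 to 0.0152 points just included 0. The intervals for AGATAA (-5.86 to 0.136 points), for TGATAA (-8.66 to 1.09 points) and for TGATAG (-9.92 to 0.726 points) also included 0. Per kb, AGATAG was more frequent in lost peaks, 1.50 against 1.00, and without tandem peaks less frequent, 0.829 against 0.943. The repeats thus set the direction for this string.

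The GATA:E-box composite, in which CTG and GATAA stand 8 bases apart and which GATA factors bind with TAL1, was found in 167 lost wide peaks (15.0%) and in 19.7% of retained ones. The difference was -4.62 points (-8.92 to -0.612), and in the neighbouring stretches of the lost peaks the share was 3.11%. Searched only in the central 400 bp the difference was -2.89 points (-6.44 to 0.264) and in the central 800 bp -3.64 points (-7.77 to 0.166), so the call did not hold there. The E-box CAGCTG was present in 41.6% of lost and 43.1% of retained peaks, against 31.9% of the lost peaks' neighbouring stretches. The RUNX string AACCACA was in 23.3% of lost and 24.9% of retained peaks, against 16.0% of those stretches. Both were thus more frequent in lost wide peaks than nearby, and their differences from the retained peaks had intervals that included 0. The ETS strings CCGGAAG or CAGGAAG were in 32.9% and 35.5% (27.5% in the stretches), and the AP-1 strings TGACTCA or TGAGTCA in 24.4% and 26.2% (14.6%). The CACCC box CCACACC, of KLF factors, was in 18.1% and 19.5% (19.3%), and CCAAT in 72.5% and 72.1% (73.6%). For CACCC and CCAAT the lost peaks were thus close to their surroundings, and for AP-1 well above them. The GC box GGGCGG was in 15.4% and 12.9% (14.7%). The core CCANNAGNGGC of CTCF, the insulator protein, was in 5.14% of lost and 2.96% of retained peaks (3.20%), a difference of 2.18 points (-0.0859 to 4.06). Strings were searched on both strands, and each of these 8 intervals for strings other than GATA included 0, from -7.81 points for ETS to 6.04 points for the GC box at their outer ends. This did not hold in every setting. Among peaks of 1000 bp or more the CACCC difference was -11.6 points (-19.8 to -3.74), and in the central 800 bp the CTCF difference was 2.78 points (0.782 to 4.45).

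By position, lost wide peaks were mostly distal. They lay between genes in 42.9% (476 peaks), in introns in 37.1% (412), within 3 kb of a protein-coding TSS in 18.6% (207) and in exons in 1.35% (15). Promoters were more frequent than among retained peaks, 18.6% against 14.0%, a difference of 4.70 points (0.644 to 8.41). The share among all asynchronous peaks was 20.5%. Within 1 kb of a TSS the shares were 9.10% and 6.13%, a difference of 2.97 points (-0.00565 to 5.56), and among peaks of 1000 bp or more the promoter difference was 1.92 points (-5.42 to 8.67), so the call ended in both cases. Introns differed by -2.84 points (-8.12 to 2.35) and intergenic sequence by -2.36 points (-7.71 to 2.95). The median distance to a TSS was 16630 bp (14351 to 19307) in lost and 18188 bp (15175 to 22072) in retained peaks. CpG-rich sequence, with at least 50% GC and an observed to expected CpG ratio of at least 0.6, was rare, in 2.07% of lost and 1.06% of retained peaks. The median GC content was 43.5% and 43.9%.

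Lost wide peaks also stood among other GATA2 peaks. Another asynchronous peak lay within 10 kb of 63.2% of lost and 68.5% of retained wide peaks, a difference of -5.26 points (-10.2 to -0.114). The interval included 0 at 3 kb (-2.75 points, -8.04 to 2.45) and at 50 kb (-2.61 points, -5.07 to 0.231). It also did so among peaks of 1000 bp or more (-1.81 points, -10.5 to 7.17) and with lost peaks weighted to the widths of retained ones (-5.02 points, -10.0 to 0.177). Over all asynchronous peaks the share was 52.5%, and lost wide peaks were 11.7 points (8.73 to 14.5) above the lost peaks under 800 bp. Within 50 kb lost peaks had 3.95 ± 2.89 (SD) other asynchronous peaks and retained ones 4.32 ± 2.91. The nearest mitotic peak was a median of 241317 bp away (215841 to 284437), 216 lost wide peaks (19.5%) had one within 50 kb, and 5 had one within 500 bp. For lost peaks under 800 bp the median distance was 333410 bp (326154 to 341869). The rule keeps lost peaks off mitotic peaks, so these distances are a description. Wide peaks were found on 23 chromosomes, and the lost share ran from 52.9% (9 of 17) on chromosome 22 to 78.3% on chromosomes 13, 21 and X. On none of the 23 did the interval leave out the share of all wide peaks.

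Each wide peak was named after the protein-coding gene whose TSS is closest, a label of position that does not show regulation. Lost wide peaks were nearest to 952 genes, 4.76% of 20020, and retained ones to 440, or 2.20%. Of the 952, 830 had 1 lost wide peak and 27 had 3 or more. Both kinds were found at 106 genes, which is 11.1% of the genes with a lost and 24.1% of those with a retained wide peak. For 341 lost wide peaks (30.7%), the same gene was nearest to some retained peak of any width.

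CITED2, which encodes a co-regulator that binds CBP and p300 and acts in haematopoietic stem cells, had most. Its 6 lost wide peaks lay between 71050 and 374033 bp upstream, all between genes, with widths from 823 to 1496 bp and 3 to 8 GATA cores. One retained wide peak, at chr6:139517896-139519154, lay 143877 bp upstream, close to a lost one at chr6:139520101-139520991. These peaks had 5 and 4 GATA cores. Over all widths CITED2 was nearest to 36 asynchronous peaks, of which 3 overlapped a mitotic one.

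The genes with 4 lost wide peaks each were ATP11B (a phospholipid flippase), ATP2B1 (a calcium pump of the plasma membrane), BTG1 (an antiproliferative protein), PRICKLE1 (a protein of planar cell polarity), TRIB2 (a pseudokinase) and ZEB2 (a zinc finger repressor active in haematopoiesis). Of these 6 genes, BTG1 and PRICKLE1 also had 1 retained wide peak and the others had none. At ZEB2 a lost peak of 1204 bp in an intron had 8 GATA cores, and a lost peak of 815 bp 2182 bp upstream of a TSS had none. At BTG1 a retained peak of 847 bp and a lost peak of 807 bp, both with 5 GATA cores, lay 258036 and 259151 bp upstream. The retained one had 5 cores in one window of 200 bp and the lost one 3. COL25A1, for a collagen, had 3 lost wide peaks, all in introns, and no retained one.

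Genes with several wide peaks of both kinds also included LPIN1 (a phosphatidate phosphatase), MYC and MYO3B (a myosin), each with 2 lost and 3 retained. CPEB4 (an RNA-binding regulator of translation) had 2 of each, JARID2 (a partner of Polycomb complex PRC2) had 3 lost and 1 retained, and ADGB had 1 lost and 3 retained. At ADGB the retained peaks had 6, 4 and 6 GATA cores and the lost one 3. At MYO3B the retained peaks had 4, 5 and 5 cores and the lost ones 2 and 5. The counts thus overlapped at MYO3B, and at ADGB the contrast rests on 1 lost peak. At CITED2 the 3 to 8 cores of lost peaks lay on either side of the 5 of the retained one. Over all wide peaks the medians were 4 cores in lost and 5 in retained peaks.

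The widest lost peaks lay mostly away from promoters. The widest, of 2210 bp at chr15:42498408-42500617, was in the first intron of SNAP23. Peaks of 2045 bp and 2026 bp followed the PDE9A repeat, nearest to TNRC6C, a protein of microRNA silencing, and AHR, the aryl hydrocarbon receptor. Another, of 2021 bp, lay in the first intron of RNF121. A lost peak of 1939 bp with 11 GATA cores lay 58779 bp downstream of SLC40A1, the iron exporter ferroportin. The rest of the 10 widest were nearest to BRD1, LRRK1, NUDT4 and TNFSF4. Leaving out the repeats at PDE9A and BRD1, these 8 peaks had 5 to 11 GATA cores. The 5 widest retained peaks, nearest to PRCP, MAS1L, ZBTB16, SVEP1 and TENT5C and without tandem GATA, had 8 to 14. These few peaks were not matched on width. Over all peaks of 1000 bp or more, tandem peaks included, the mean was 1.37 cores higher in lost peaks (-0.070 to 2.82).

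Of 32 haematopoietic transcription factors and their partners, 5 were nearest to a lost wide peak (15.6%) and 7 to a retained one (21.9%), with 2 having both. Over all protein-coding genes these shares were 4.76% and 2.20%. Of the 32, 29 were nearest to an asynchronous peak of some width. The shares over all genes with such a peak were not computed, for this or the other lists. The 5 were TAL1, a basic helix-loop-helix master regulator of blood formation, RUNX1, needed for the first blood stem cells, MYB, a regulator of progenitors, GFI1B, a repressor of erythroid and megakaryocytic cells, and ZBTB16, a zinc finger repressor. MYB had 2 lost peaks, and RUNX1 and ZBTB16 also had a retained one. The other genes with a retained peak were CBFA2T3, ERG, ZFPM1, HHEX and BACH1. The list was chosen with results of these data known, so its counts are a description.

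The windows with most GATA cores at the first 4 of these genes are printed for their place near regulators that act with GATA2. They lie at chr1:47239249-47239448 (TAL1), chr21:35485394-35485593 (RUNX1), chr9:132984900-132985099 (GFI1B) and chr6:135173335-135173534 (MYB), on the plus strand with GATA cores in capitals.
TAL1 lost: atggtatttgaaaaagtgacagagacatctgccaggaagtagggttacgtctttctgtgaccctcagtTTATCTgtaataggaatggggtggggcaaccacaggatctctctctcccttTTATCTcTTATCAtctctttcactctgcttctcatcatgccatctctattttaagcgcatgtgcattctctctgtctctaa
RUNX1 lost: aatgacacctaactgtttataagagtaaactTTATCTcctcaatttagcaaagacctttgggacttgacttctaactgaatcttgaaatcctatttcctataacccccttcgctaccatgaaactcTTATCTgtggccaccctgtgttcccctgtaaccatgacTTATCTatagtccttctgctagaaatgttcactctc
GFI1B lost: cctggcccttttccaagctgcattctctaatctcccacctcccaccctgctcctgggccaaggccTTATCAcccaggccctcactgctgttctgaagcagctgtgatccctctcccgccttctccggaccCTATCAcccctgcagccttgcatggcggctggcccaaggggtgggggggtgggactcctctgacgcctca
MYB lost: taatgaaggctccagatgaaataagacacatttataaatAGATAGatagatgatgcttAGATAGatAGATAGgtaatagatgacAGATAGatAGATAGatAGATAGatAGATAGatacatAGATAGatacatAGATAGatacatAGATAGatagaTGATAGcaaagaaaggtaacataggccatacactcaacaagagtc
The TAL1 peak, of 810 bp, lay 7030 bp upstream of a TSS, and all 3 of its GATA cores are in the window, with 2 of them a single base apart. The RUNX1 peak, of 901 bp, lay 20103 bp upstream of the nearest TSS, and its 3 cores are spread across the window. The retained RUNX1 peak, in an intron at chr21:34908027-34909176, was 1150 bp wide with 7 cores, of which 5 fell in one window of 200 bp. The GFI1B peak, of 922 bp, lay 2036 bp upstream of a TSS, and 2 of its 3 cores are in the window. The MYB peak printed, of 1084 bp, lay 7557 bp upstream and is one of the tandem peaks, with 15 cores and a run of 8 copies. The other lost MYB peak, at chr6:135191359-135192715, was 1357 bp wide with 6 cores. At ZBTB16 the lost peak of 1281 bp had 1 core, and the retained peak of 2009 bp, in another intron, had 11.

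Among 33 genes of red cell and haem biology, 6 were nearest to a lost wide peak (18.2%) and 3 to a retained one (9.09%), EPB41 to both, beside 4.76% and 2.20% over all protein-coding genes. An asynchronous peak of some width was nearest to 29 of the 33. The lost peaks lay at UROS, which makes uroporphyrinogen III in haem synthesis, SLC25A37, the mitochondrial iron importer mitoferrin, TFRC, the transferrin receptor, SLC4A1, the band 3 anion exchanger, EPB41, protein 4.1 of the membrane skeleton, and XPO7, an exportin. The UROS peak, 915 bp with 4 GATA cores, had its midpoint 51 bp upstream of a TSS. The TFRC peak, 1035 bp with 5 cores, was 1241 bp downstream of one. Its central 200 bp held none, while another window of the peak held 4. At EPB41 a retained peak of 969 bp and a lost one of 872 bp lay in the same first intron at chr1:28926426-28927394 and chr1:28928005-28928876, with 3 and 4 cores. Retained peaks were nearest to UROD, another enzyme of haem synthesis, and ABCB10, a mitochondrial transporter.

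Among 24 genes of cytokine signalling, 6 were nearest to a lost (25%) and 2 to a retained wide peak (8.33%), beside 4.76% and 2.20% over all protein-coding genes. An asynchronous peak of some width was nearest to 19 of the 24. The 6 were PIM1, a kinase induced by STAT5, IL6ST, the shared receptor chain gp130, TGFBR1, a receptor of TGF-β, GRB2 and GAB2, adaptors below growth factor receptors, and LYN, a kinase of the Src family. The TGFBR1 peak, of 869 bp, had 6 GATA cores, of which 4 lay in the central 200 bp, while the PIM1 peak of 901 bp also had 6 with none there. The retained ones were at SMAD6 and at KIT, the receptor of stem cell factor, whose peak was a tandem peak.

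Of 19 megakaryocyte and platelet genes, 2 had a lost wide peak, THBS1 (thrombospondin 1) and PLEK (pleckstrin), and none a retained one. Over all protein-coding genes the shares were 4.76% and 2.20%. The counts for this and the following lists are small, and none of the gene lists was tested against those shares. The PLEK peak, 813 bp wide, had 6 GATA cores, 4 of them central. Of 29 ribosomal protein genes, 3 had a lost wide peak (RPL5, RPL11 and RPS4X) and none a retained one. The RPS4X peak was exactly at the threshold of 800 bp and had 1 core. Of 16 genes for AP-1 and MAF factors, none had a lost and 2 a retained wide peak (FOSL2 and BACH2). Of 11 survival genes only MYC had either, and none of 30 cell cycle genes did. Among those 30, 18 were nearest to an asynchronous peak of some width.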

How the data were processed

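The deposited lists of GATA2 ChIP-seq peaks in K562 cells were used, 1 from asynchronous and 1 from mitotic cells. The input libraries were not used here. The authors aligned reads to hg38 with BWA 0.7.12, kept uniquely mapped reads (mapping quality of at least 25), extended them to 200 bp, determined peaks with MACS2 2.1.0 and Genrich 0.6.1 and removed blacklisted peaks. How the calls of both programs were combined, and with which thresholds, is not given in the sources used here. The deposited values are genomic positions (chromosome, start and end) in bp, without score or depth.

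Peaks of at least 800 bp were split by whether they shared at least 1 base with a mitotic peak. Sequence was read from GRCh38 and genes from GENCODE release 44. Introns and exons are those of the annotation, and a peak was called a promoter peak where its midpoint lay within 3 kb of a protein-coding TSS. Shares have exact Clopper-Pearson intervals, differences of shares Newcombe intervals, medians order-statistic intervals, and differences of means intervals from the standard errors over peaks. Widened intervals divide the error rate by the 36 shares compared. No test between conditions was made, since each has 1 library and peaks are not replicates.

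The members, gene lists and measures were chosen with earlier results of these data known. Named genes are those of the lists with a lost wide peak, the 10 with most lost wide peaks, those at the 10 widest lost and 5 widest retained peaks, the 10 with both kinds and most wide peaks, and those of the printed sequences. Of these genes, 2 are not reported here. Tandem peaks, the measures of central and dense cores, single peaks set side by side and list genes with a retained peak only were singled out after values were seen. Sequence windows that touched an annotated UTR were passed over for the next widest peak, which set aside the ZSCAN31 promoter peak and 1 MYB peak. No sequence from chromosome 8 was printed. Alternatives changed the width, overlap rule, chromosomes, window searched, strings, promoter and neighbour distances, and the matching on width over 5 classes. The steps were tested on simulated data. Intervals were computed with scipy 1.17.1 and numpy 2.4.6, sequences read with pysam 0.24.0, tables joined with pandas 2.3.3 under Python 3.11.15 and plots drawn with matplotlib 3.10.9.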

Additional observations from a re-analysis of the deposited data

How the results depend on the processing

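Of 140 alternative values, 128 stayed inside the interval of the reported value and 12 did not. The alternatives limited to autosomes and chromosome X could not move any value, since no wide peak lay on chromosome Y. The share of wide peaks lost was 74.2% at 700 bp or more and 62.5% at 1000 bp or more. The mean difference in GATA cores was 1.37 at 1000 bp or more (-0.070 to 2.82) and -0.20 in the central 400 bp (-0.47 to 0.07). It was -0.20 for AGATAAG or TGATAAG alone (-0.33 to -0.08) and -0.48 without tandem peaks (-0.74 to -0.22). The difference in peaks with 7 or more cores was 0.502 points in the central 400 bp. At 1000 bp or more the difference in peaks with 3 or more cores in one window was -2.94 points, that in tandem peaks was 3.28 points (-0.140 to 6.37), and those of CACCC and E-box strings were -11.6 (-19.8 to -3.74) and 9.27 points (-0.0432 to 18.3). The CACCC difference was 3.08 points in the central 800 bp, and that of CTCF 2.78 (0.782 to 4.45). With lost peaks weighted to the widths of retained ones, the mean difference in GATA cores was 0.74 (0.04 to 1.45) and that in peaks with 7 or more -1.02 points. The cause of these changes was not tested. The promoter difference kept its sign in 8 of 8 alternatives and left out 0 in 6, the composite in 10 of 10 and in 8. The neighbour difference did so in 8 of 8 and in 4, and the central core difference in 7 of 7 and in 6. The counts for promoter, composite and neighbours include the alternative of autosomes and chromosome X, which repeats the reported value. The measures of central, dense and tandem cores and their alternatives were chosen after seeing the data. No paired analysis was possible because each condition has 1 library, and none could be left out. Depth and peak height are unknown, so a lost site cannot be told apart from one under the limit of detection.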
